A study of Mus musculus with 65 samples.

Results

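IHO1 peaks of wild-type mouse testes were compared with those of Spo11KO testes, in which the enzyme that cuts DNA at the start of meiotic recombination is missing. The wild-type list held 1589 peaks and the Spo11KO list 2681, together 4270 of the 45774 peaks in all 21 lists for MEI4, IHO1 and the axis proteins HORMAD1 and SYCP3 in the series. A peak was taken as shared where it had at least 1 bp in common with an IHO1 peak of the other genotype, and otherwise as present only in its own genotype. By this rule 797 wild-type peaks were shared and 792 were wild-type only, while 783 Spo11KO peaks were shared and 1898 were Spo11KO only. Each class was then described by DMC1 hotspots and CTCF peaks of the wild type and by MEI4 peaks of both genotypes, none of which was used to form it.

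Per the labels, the wild-type group was C57BL/6JCrl of genotype wild-type and the other group was Spo11tm1Mjn (Spo11KO), also given as C57BL/6JCrl, and each IHO1 group had 2 samples. Both groups underwent the same synchronisation of spermatogenesis. Pups aged 1.5 days were fed WIN 18,466, a blocker of retinoic acid production, for 7 to 10 days, and were then injected with retinoic acid. Whole testes were taken 8 days after that injection, at which point leptotene and zygotene spermatocytes made up 80 to 95%. These are the early prophase stages in which breaks are made. The labelled cell type could not be set against marker genes in chromatin data. The number of animals per sample is not given in the sources used here. There was 1 peak list per group, so no difference between the genotypes has a replicate check, and no p-value is given. A peak in a whole tissue does not tell more cells with the protein from more protein per cell, and those cannot be told apart here. The sequencing depth is unknown, and the IHO1 lists carry no peak height.

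Meiotic recombination starts with DNA double-strand breaks made by SPO11. In the mouse the breaks fall at hotspots chosen by PRDM9, a zinc-finger methyltransferase, and the resected ends are coated by the recombinase DMC1, whose binding therefore maps the sites of breakage. IHO1 and MEI4 belong to the machinery that must assemble before SPO11 can cut, and IHO1 joins that machinery to HORMAD1 on the chromosome axis, of which SYCP3 is a core protein. CTCF is an architectural DNA-binding protein that anchors chromatin loops.

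A few IHO1 peaks lay over gene starts, and these are the places where the DNA under the classes can be shown. In windows of 300 bases around annotated gene starts (250 before and 50 after), 164 of 32851 windows had an IHO1 peak in wild type (0.499%) and 183 in Spo11KO (0.557%). IHO1 was present in both genotypes at 55 windows, in wild type alone at 109 and in Spo11KO alone at 128. A gene can have several windows, so windows are not independent. A simplified core of the CTCF recognition sequence (CCA, any 2 bases, AG, any 2 bases, GGC) was searched on both strands. It was found in 2.43% of all windows (797 of 32851) and in 5.83% of the 4270 windows at a CTCF peak. Among the IHO1 windows it was found in 2 of 55 with IHO1 in both genotypes, 8 of 109 in wild type alone and 2 of 128 in Spo11KO alone. The 250 bases before the start are printed from RefSeq, assembly GRCm38.p6, 5′ to 3′ on the strand of the gene, with the core in capitals. Shown first is the window with the highest CTCF score among those that held the core, for IHO1 in both genotypes (Gm12273), in wild type alone (Gm32630) and in Spo11KO alone (Gm12236).
Gm12273, chr11:61950667-61950916, plus strand: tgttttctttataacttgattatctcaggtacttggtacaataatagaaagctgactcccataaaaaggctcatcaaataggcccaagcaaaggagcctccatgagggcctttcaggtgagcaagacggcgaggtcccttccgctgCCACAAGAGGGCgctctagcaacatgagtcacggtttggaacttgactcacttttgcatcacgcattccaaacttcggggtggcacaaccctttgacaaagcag
Gm32630, chr7:16932150-16932399, minus strand: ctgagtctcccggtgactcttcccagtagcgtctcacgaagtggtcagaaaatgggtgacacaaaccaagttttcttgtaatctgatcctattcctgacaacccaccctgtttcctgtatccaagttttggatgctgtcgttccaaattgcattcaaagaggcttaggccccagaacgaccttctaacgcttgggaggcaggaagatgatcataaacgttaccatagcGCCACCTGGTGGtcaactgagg
Gm12236, chr11:55518740-55518989, plus strand: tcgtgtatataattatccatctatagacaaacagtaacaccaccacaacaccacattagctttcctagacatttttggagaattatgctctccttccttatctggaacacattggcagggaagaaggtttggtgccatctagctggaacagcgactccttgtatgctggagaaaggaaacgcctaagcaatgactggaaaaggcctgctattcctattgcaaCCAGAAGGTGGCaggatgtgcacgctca
The core of Gm12273 occupied bases 147 to 158 and that of Gm12236 bases 223 to 234, both on the strand of the gene. That of Gm32630, at bases 229 to 240, lay on the opposite strand and is therefore printed as its complement. The CTCF scores of the 3 sites were 4.07 (Gm12273), 5.76 (Gm32630) and 5.32 (Gm12236). Windows chosen for the core and a CTCF peak thus existed in each class, and their scores describe these 3 sites alone. The last one shown covers the gene start under a named Spo11KO-only peak, at Ddx18, which encodes an RNA helicase of the nucleolus.
Ddx18, chr1:121567981-121568230, minus strand: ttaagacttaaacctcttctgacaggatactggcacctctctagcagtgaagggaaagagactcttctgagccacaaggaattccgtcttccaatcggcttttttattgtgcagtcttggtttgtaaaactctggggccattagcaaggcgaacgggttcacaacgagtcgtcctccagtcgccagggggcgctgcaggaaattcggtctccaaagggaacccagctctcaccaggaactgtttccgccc
The CTCF score was 9.67 at Ddx18, and its window did not hold the core in these letters. A match or its lack describes only these windows. Of the 128 windows with IHO1 in Spo11KO alone, 33.6% (Wilson 95% interval 26.0 to 42.1) overlapped a DMC1 hotspot, compared with 3.67% (1.44 to 9.06) of the 109 with IHO1 in wild type alone and 5.24% of all windows. A CTCF peak lay at 25% (18.3 to 33.2) of the former and 33.9% (25.7 to 43.2) of the latter, compared with 13% of all windows.

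The shared part made up different portions of each list. It was 50.2% of the wild-type peaks (Wilson 95% interval 47.7 to 52.6) and 29.2% of the Spo11KO peaks (27.5 to 31.0). Matching was mostly 1 to 1: 9 wild-type peaks touched 2 or more Spo11KO peaks, and 23 Spo11KO peaks touched 2 or more wild-type peaks. Peaks without a partner were usually far from one. The median distance from a wild-type-only peak to the nearest Spo11KO peak was 183 kb, and 117 of the 792 lay within 1 kb. For Spo11KO-only peaks the median was 567 kb, and 45 of 1898 lay within 1 kb.

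The classes differed in the sites they occupied. DMC1 hotspots lay under 80.6% of the Spo11KO-only peaks (1530 of 1898; 78.8 to 82.3), 56.1% of the shared wild-type peaks (447 of 797; 52.6 to 59.5) and 25% of the wild-type-only peaks (198 of 792; 22.1 to 28.1). The share of Spo11KO-only peaks exceeded that of wild-type-only peaks by 55.6 percentage points (Newcombe 95% interval 52.0 to 59.0), and that of shared peaks did so by 31.1 points (26.4 to 35.6). Differences were called where this interval excluded 0, and both were. Restricting each list to its wider 50% of peaks lowered the former to 24.1 points. The order for CTCF peaks was the opposite, with 17.4% of Spo11KO-only and 36.2% of wild-type-only peaks at one. This was a called difference of -18.9 points (-22.6 to -15.1). Among the wider 50% it was 1.48 points (-3.52 to 6.22), which was not called. Of the peaks at neither kind of site, 326 were wild-type only, 148 were shared wild-type peaks and 186 were Spo11KO only. IHO1 peaks present without SPO11 alone were thus mainly at hotspots, and those present in the wild type alone mainly elsewhere.

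**Figure D1:**
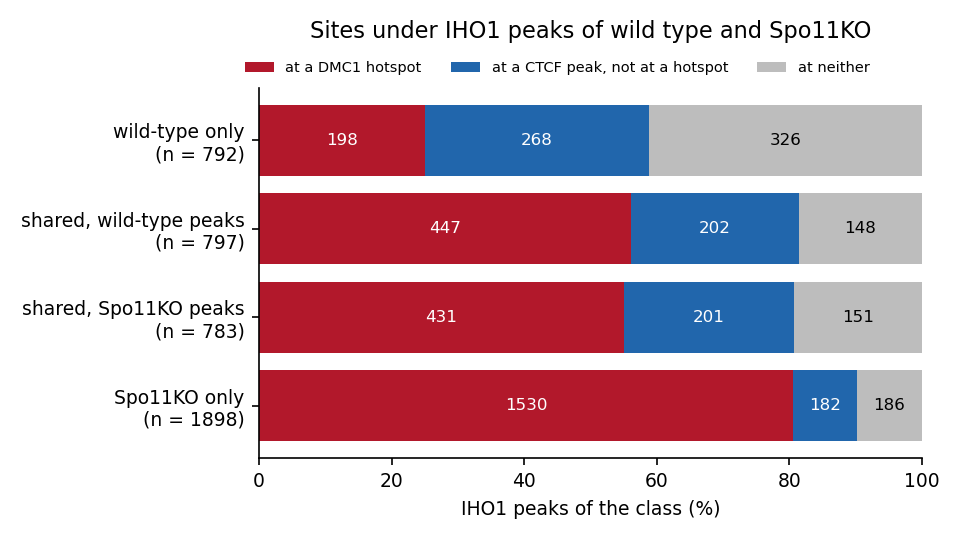
Stacked bars give the percentage of IHO1 peaks of each class (horizontal axis) that lay at a DMC1 hotspot (red), at a CTCF peak but not at a hotspot (blue) or at neither (grey), with the number of peaks in each segment. The red segment holds 198 of 792 wild-type-only peaks and 1530 of 1898 Spo11KO-only peaks.

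Counted by hotspot, 572 of the 13808 wild-type DMC1 hotspots had an IHO1 peak in wild type (4.14%) and 1962 had one in Spo11KO (14.2%). IHO1 was present in both genotypes at 445 hotspots, in Spo11KO alone at 1517 (11%) and in wild type alone at 127 (0.920%). Among hotspots with IHO1 in exactly 1 genotype, 92.3% (90.9 to 93.5) had it in Spo11KO, an interval above an even split of 50%. With the Spo11KO list reduced to the length of the wild-type list by keeping its widest peaks, the share was 75.3% and still called. Both genotypes together left 11719 hotspots without IHO1.

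The hotspots that had IHO1 in Spo11KO alone were weaker in wild-type DMC1 than those with IHO1 in both genotypes. The DMC1 value is the authors' signal per hotspot, in a unit they did not name, and ran from 1 to 20822.5 with a median of 129. Its median was 3666 (quartiles 2602 to 5290) at hotspots with IHO1 in both genotypes, 1034 (595 to 1684) at those with IHO1 in Spo11KO alone, 2403 (1029 to 4985) at those with IHO1 in wild type alone and 100 (49 to 243) at those with none. In the strongest 25% of all hotspots, with a value of 437 or more, lay 85.0% of the hotspots with IHO1 in Spo11KO alone and 96.0% of those with IHO1 in both genotypes, a called difference of -11.0 points (-13.4 to -8.15). The strongest 10% of hotspots held 599 of the 1517. The hotspots gained without SPO11 were thus strong ones among all hotspots, but weaker than those with IHO1 in both genotypes.

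Ranking the hotspots by DMC1 value showed where the genotypes parted. Among the 50 strongest hotspots IHO1 was present at 90% in wild type (45 hotspots; 78.6 to 95.7) and 76% in Spo11KO (38 hotspots; 62.6 to 85.7), and wild type was also the higher in the next bins, at 86% and 76% and then 87% and 83%, down to rank 200. The intervals overlapped in each of these 3 bins. At ranks 401 to 600 the shares were 48.5% (41.7 to 55.4) in wild type and 81.5% (75.5 to 86.3) in Spo11KO. They were 7.5% (5.30 to 10.5) and 63.5% (58.7 to 68.1) at ranks 1001 to 1400. Wild-type IHO1 peaks were thus close to absent below the strongest 10% of hotspots, where 1.09% of the next 10% had one, whereas 39.5% of that group and 17.5% of the 10% below it had IHO1 in Spo11KO. MEI4 reached further down the ranks than IHO1 in each genotype, with 31.9% of the next 10% in wild type and 78.3% in Spo11KO.

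**Figure D2:**
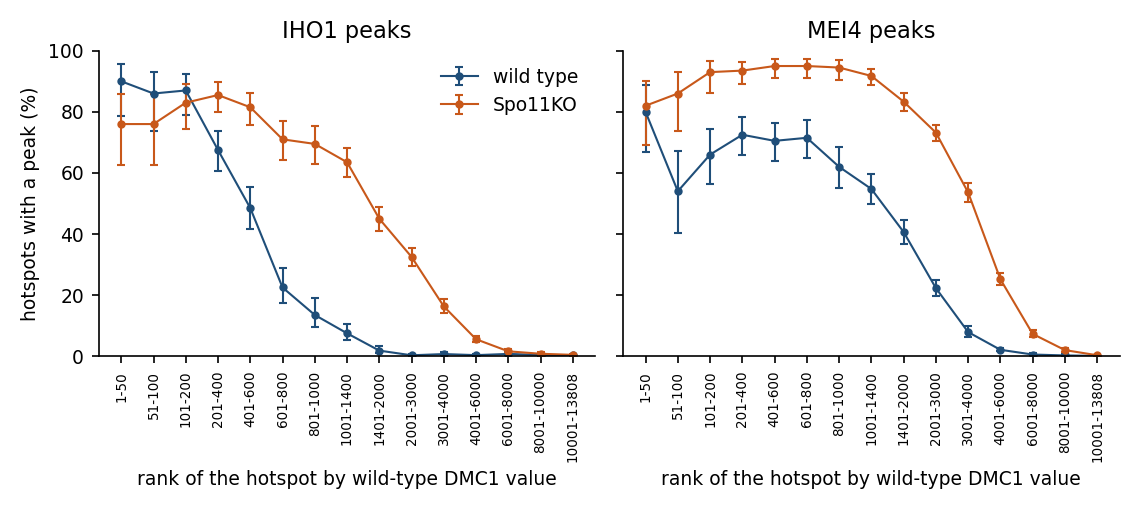
The vertical axis gives the percentage of wild-type DMC1 hotspots with an IHO1 peak (left panel) or a MEI4 peak (right panel), in bins of rank by DMC1 value from strongest to weakest, in wild type (blue) and Spo11KO (orange), with Wilson 95% intervals as bars. For IHO1 wild type lies above Spo11KO over the 200 strongest hotspots, with overlapping intervals, and below it at lower ranks, at 7.5% and 63.5% for ranks 1001 to 1400.

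The 3 Spo11KO-only peaks at the strongest hotspots lay at chr6:37777814-37781115 (DMC1 value 15504), at chr16:45682441-45685511 within the span of Tmprss7, a membrane serine protease gene (13305.5), and at chr11:79545234-79549026 within that of Nf1, which encodes the Ras regulator neurofibromin (12505.5). Coordinates are on mm10. Each of the 3 had a MEI4 peak in both genotypes, a HORMAD1 peak in Spo11KO and an IHO1 peak that covered the hotspot centre. Among the shared peaks, those at the strongest hotspots were chr2:38136911-38141589 in Dennd1a, a gene of endosomal traffic (20513.5), chr1:67959373-67965397 (18266.5) and chr2:98106143-98108602 (17661.5). MEI4 was present in both genotypes at all 3. The strongest hotspot of the whole list, with a value of 20822.5, carried a wild-type-only peak, at chr11:89607570-89616591 in Ankfn1. It had MEI4 in wild type, in Hormad1KO and in Iho1KO but not in Spo11KO. Of the other wild-type-only peaks at strong hotspots, chr1:68485797-68492006 in Erbb4, a receptor kinase gene (18961), had MEI4 in both genotypes. The peak at chr10:92677067-92684824 in Nedd1, a centrosome gene (18957.5), had MEI4 in neither wild type nor Spo11KO. All 3 of these wild-type-only peaks had MEI4 in Hormad1KO and in Iho1KO. The sites of the wild-type-only class at strong hotspots were therefore not alike in MEI4 of wild type and Spo11KO.

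MEI4, the partner of IHO1 in the machinery, was present at nearly all hotspots where IHO1 appeared without SPO11. Over all hotspots, MEI4 peaks lay at 1513 in wild type (11%) and at 3770 in Spo11KO (27.3%). Of the 1517 hotspots with IHO1 in Spo11KO alone, 95.4% (94.2 to 96.3) had MEI4 in Spo11KO and 49.1% (46.6 to 51.6) already had it in wild type. Strong hotspots in general often had MEI4 in Spo11KO, at 93.0% of the strongest 10% and 78.3% of the next 10%. Within the strongest 10%, it lay at 99.3% (98.3 to 99.7) where IHO1 was in Spo11KO alone and 77.7% (72.4 to 82.2) where IHO1 was in neither. The 127 hotspots with IHO1 in wild type alone had MEI4 in Spo11KO in 67.7% (59.2 to 75.2) of cases and in wild type in 50.4% (41.8 to 58.9).

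Taken by peak, wild-type MEI4 lay at 45.4% of shared wild-type peaks and 15.4% of wild-type-only peaks, a called difference of 30.0 points (25.7 to 34.2). MEI4 of Spo11KO lay at 77.4% of Spo11KO-only peaks and 15.9% of wild-type-only peaks, a called difference of 61.5 points (58.2 to 64.5), which was 28.4 points among the wider 50% of each list. Within hotspots the gap was narrower but of the same direction, with Spo11KO MEI4 at 95.4% of Spo11KO-only and 58.6% of wild-type-only hotspot peaks.

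The presence of MEI4 in both genotypes did not fix the presence of IHO1. At the 1416 hotspots with MEI4 in both, IHO1 was found at 26.3% (24.1 to 28.7) in wild type and 74.6% (72.3 to 76.8) in Spo11KO. At the 2354 hotspots with MEI4 in Spo11KO alone, IHO1 was found at 5.57% (4.71 to 6.57) and 34.3% (32.4 to 36.3). In the other direction, MEI4 of the same genotype was present at 69.4% (65.5 to 73.0) of the hotspots with IHO1 in wild type and at 95.1% (94.0 to 95.9) of those with IHO1 in Spo11KO. The IHO1 list of Spo11KO hotspots was thus almost contained in the MEI4 list, and that of the wild type less so. All hotspots of DMC1 value 1266 or more showed a similar contrast, with MEI4 at 64.9% in wild type and 93.0% in Spo11KO. Those of them with IHO1 in neither genotype had MEI4 at 34.1% and 77.7%. Whether IHO1 was tied more closely to MEI4 in Spo11KO, given hotspot strength and the longer MEI4 list, was not tested.

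Lists of other knockouts were read at the same hotspots. In Mei4KO, IHO1 was present at 10 of the 1517 hotspots with IHO1 in Spo11KO alone (0.659%) and at 13 of the 445 with IHO1 in both (2.92%), compared with 0.0939% of the 11719 hotspots with IHO1 in neither genotype. In Hormad1KO it was present at 55.2% (52.7 to 57.7) and 84.9% (81.3 to 88.0) of these, compared with 3.93% of those 11719. MEI4 of Iho1KO, where IHO1 is missing, lay at 70.5% (68.1 to 72.7) of the 1517 and at 9.23% of the 11719. Those 11719 were mostly weak, with a median DMC1 value of 100. Within the strongest 10% of hotspots the gaps were smaller. IHO1 of Hormad1KO lay there at 77.6% (74.1 to 80.8) where IHO1 was in Spo11KO alone and 42.9% (37.1 to 48.8) where it was in neither. For MEI4 of Iho1KO these shares were 87.5% (84.6 to 89.9) and 48.4% (42.5 to 54.3). Most hotspots that had IHO1 in Spo11KO alone thus had MEI4 in the absence of IHO1 and IHO1 in the absence of HORMAD1, while few had IHO1 in the absence of MEI4. The share of those few was above that of hotspots without IHO1 over all strengths only. Within the strongest 10%, IHO1 of Mei4KO lay at 0 of 599 hotspots with IHO1 in Spo11KO alone and 0 of 273 with IHO1 in neither.

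HORMAD1 and SYCP3 of the axis were found less often at hotspots that had IHO1 in Spo11KO alone than at those with IHO1 in both genotypes, with intervals that did not overlap. HORMAD1 peaks lay at 11.1% (9.59 to 12.8) of the former in wild type and 20.6% (18.7 to 22.7) in Spo11KO. At the 445 hotspots with IHO1 in both genotypes the values were 76.0% (71.8 to 79.7) and 57.8% (53.1 to 62.3), and at the 127 with IHO1 in wild type alone 70.9% (62.4 to 78.1) and 37.8% (29.8 to 46.5). SYCP3 lay at 27.9% (25.7 to 30.2) in wild type and 18.9% (17.0 to 20.9) in Spo11KO where IHO1 was in Spo11KO alone, so there HORMAD1 was more frequent and SYCP3 less frequent in Spo11KO than in wild type. The SYCP3 values were 87.9% (84.5 to 90.6) and 49.7% (45.0 to 54.3) where IHO1 was in both, and 70.1% and 27.6% where it was in wild type alone. At hotspots with IHO1 in neither genotype, HORMAD1 lay at 0.452% in wild type and 0.794% in Spo11KO, and SYCP3 at 1.09% and 2.15%, far below all 3 groups. Within the strongest 10% of hotspots, wild-type SYCP3 lay at 55.4% (51.4 to 59.4) of those with IHO1 in Spo11KO alone and 90.4% (87.2 to 92.9) of those with IHO1 in both, and wild-type HORMAD1 at 24.9% (21.6 to 28.5) and 77.2% (73.0 to 81.0). Where IHO1 was in wild type alone, these shares were 84.6% (75.8 to 90.6) for SYCP3 and 80.2% (70.9 to 87.1) for HORMAD1. In the wild-type lists, hotspots with IHO1 in Spo11KO alone thus stayed the lowest of the 3 groups among strong hotspots. All these wild-type shares were higher than over all hotspots. The 3 groups still differed in strength there, with median DMC1 values of 1874 (IHO1 in Spo11KO alone), 3849 (both) and 3437 (wild type alone). In the Spo11KO lists, HORMAD1 lay at 32.4% (28.8 to 36.2), 57.3% and 38.5% (29.1 to 48.7) of these groups. SYCP3 lay at 27.7% (24.3 to 31.4), 48.4% and 29.7% (21.3 to 39.7). There the groups with IHO1 in only 1 genotype had overlapping intervals. Per the labels, the SYCP3 group of Spo11KO had 1 sample.

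The same classes were made for the other proteins to see whether the change of sites was shared. Spo11KO-only peaks lay at hotspots in 98.7% of cases for MEI4, 21.2% for HORMAD1 and 24.7% for SYCP3, compared with 80.6% for IHO1. Among hotspots with a peak in exactly 1 genotype, the share with the peak in Spo11KO was 96.0% (95.2 to 96.7) for MEI4, 54.6% (50.8 to 58.3) for HORMAD1 and 38.5% (35.5 to 41.5) for SYCP3. The share for IHO1, 92.3%, was 3.77 points below that for MEI4 (interval of the difference -5.33 to -2.30), 37.7 points above that for HORMAD1 (33.7 to 41.7) and 53.8 points above that for SYCP3 (50.5 to 57.0). All 3 differences were called. In this measure IHO1 stood close to MEI4 and far from the axis proteins. Other measures gave another order. Of the wild-type peaks, 50.2% were found in Spo11KO for IHO1, 91.1% for MEI4, 65.5% for HORMAD1 and 38.9% for SYCP3. There IHO1 lay between the axis proteins. Wild-type-only peaks lay at hotspots in 25% of cases for IHO1, 68.3% for MEI4, 60.0% for HORMAD1 and 63.8% for SYCP3.

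IHO1 peaks at hotspots were also of a different shape in the 2 genotypes. Of 1961 Spo11KO peaks at hotspots, 99.2% (1946; 98.7 to 99.5) covered the midpoint of a hotspot, compared with 69.5% (448 of 645; 65.8 to 72.9) in wild type. The difference was 29.8 points (26.3 to 33.5) and was called. It was 4.22 points, still called, where 50% of the shorter interval had to overlap, and 5.84 points among the wider 50% of peaks. The median distance from the middle of the peak to that of the hotspot was 142 bp in Spo11KO (quartiles 69 to 262) and 658 bp in wild type (210 to 1354). Spo11KO peaks were narrower, with a median width of 1710 bp at hotspots against 3286 bp.

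The contrast was not tied to hotspots present in only 1 list or to their strength. Restricted to the 445 hotspots with IHO1 in both genotypes, the peaks covered a midpoint in 98.2% of cases in Spo11KO and 73.4% in wild type. Of these hotspots, 371 had their midpoint in a peak of both genotypes, 67 in a Spo11KO peak alone, 1 in a wild-type peak alone and 6 in neither. For hotspots of DMC1 value 4000 or more the shares of peaks were 98.3% and 70.8%, and for values from 2000 to under 4000 they were 99.5% and 68.4%. In wild type, 72 of 572 hotspots held 2 or more separate IHO1 peaks, compared with 2 of 1962 in Spo11KO. At 32 of those 72 the wild-type peaks lay to both sides with none over the midpoint, and 18 of the 32 had a Spo11KO peak over it. Among the 742 pairs of peaks that matched 1 to 1 at any site, the wild-type peak was the wider in 509 (68.6%), with a median ratio of widths of 1.24. Of the 198 wild-type-only peaks at hotspots, 56 lay at a hotspot that had a Spo11KO peak elsewhere within it, so for these the class reflects position within a hotspot.

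**Figure D3:**
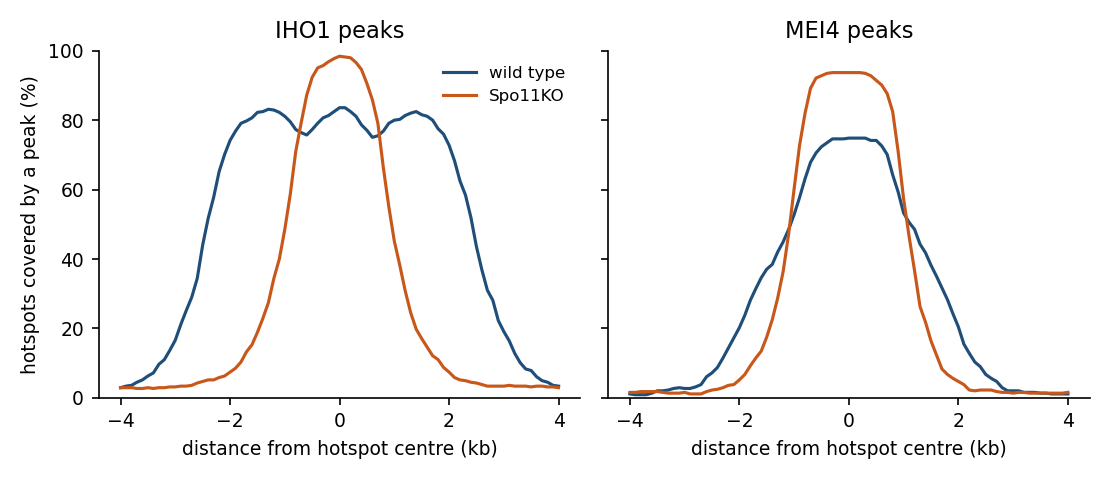
For the 445 hotspots with IHO1 in both genotypes, the vertical axis gives the percentage covered by an IHO1 peak (left panel) or a MEI4 peak (right panel) at each distance in kb from the hotspot centre (horizontal axis), in wild type (blue) and Spo11KO (orange). At the centre IHO1 coverage is 83.6% in wild type and 98.4% in Spo11KO, and at 2 kb beyond it 72.8% and 7.42%.

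The profile over those 445 hotspots showed a plateau in wild type and a narrow dome in Spo11KO. At 2 kb before the centre, wild-type IHO1 peaks covered 74.2% of the hotspots and Spo11KO peaks 7.42%. Wild-type coverage was 77.3% at 0.5 kb before the centre and 82.2% at 1.5 kb before it, so it dipped between the centre and the flanks. For MEI4 the values at 2 kb before the centre were 20.2% in wild type and 5.16% in Spo11KO, and 74.8% and 93.7% at the centre. The axis proteins resembled IHO1 in this respect: HORMAD1 peaks at hotspots covered a midpoint in 74.0% of cases in wild type and 97.1% in Spo11KO, and SYCP3 peaks in 71.1% and 96.2%, while MEI4 peaks did so in 99.8% and 99.7%.

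CTCF peaks away from hotspots showed no such gain over the whole lists. Of 31495, 463 had an IHO1 peak in wild type (1.47%) and 384 in Spo11KO (1.22%). IHO1 was in both genotypes at 195, in Spo11KO alone at 189 (0.600%) and in wild type alone at 268 (0.851%). Among those with IHO1 in exactly 1 genotype, 41.4% (36.9 to 45.9) had it in Spo11KO, an interval below 50%. This reversed to 66.2% among the wider 50% of peaks of each list, so the direction at CTCF peaks depended on which peaks were kept. Among peaks that were not at hotspots, CTCF lay under 49.5% of Spo11KO-only (182 of 368) and 45.1% of wild-type-only peaks (268 of 594). Their difference, 4.34 points (-2.14 to 10.8), did not exclude 0, but it was 12.7 points with the stricter overlap, 6.35 with peaks cut to the central 1 kb and 19.5 among the wider 50%, all called. The value was 0.482 points with the reduced Spo11KO list and 1.67 points without the last 1 Mb of chromosomes 4, 9, 13, X and Y, neither called.

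CTCF peaks with IHO1 had high scores in both genotypes. The authors' CTCF score ran from -6.85 to 37.3 with a median of 1.92 over all CTCF peaks. Away from hotspots its median was 4.10 (quartiles 3.18 to 5.14) at CTCF peaks with IHO1 in both genotypes, 3.78 (2.89 to 4.85) with IHO1 in Spo11KO alone, 3.52 (2.67 to 4.54) in wild type alone and 1.89 (1.26 to 2.84) without IHO1. The upper 25% of scores held 68.3% of the CTCF peaks that had IHO1 in wild type alone and 77.9% of those that had it in both. This difference of -9.67 points (-17.5 to -1.42) was called, but it was -1.47 with the reduced Spo11KO list, -3.28 with the 50% of CTCF peaks of higher score and -7.46 with the 1 kb window, none of them called, and -18.2 among the wider 50%. In 10 equal groups by score, IHO1 was at 6.92% (6.09 to 7.86) of the highest group in wild type and 6.48% (5.67 to 7.39) in Spo11KO, and at 1.71% and 1.05% of the third. The median distance from the middle of an IHO1 peak to that of the CTCF peak lay between 288 and 346 bp in all 4 classes, without the shift that was seen at hotspots.

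**Figure D4:**
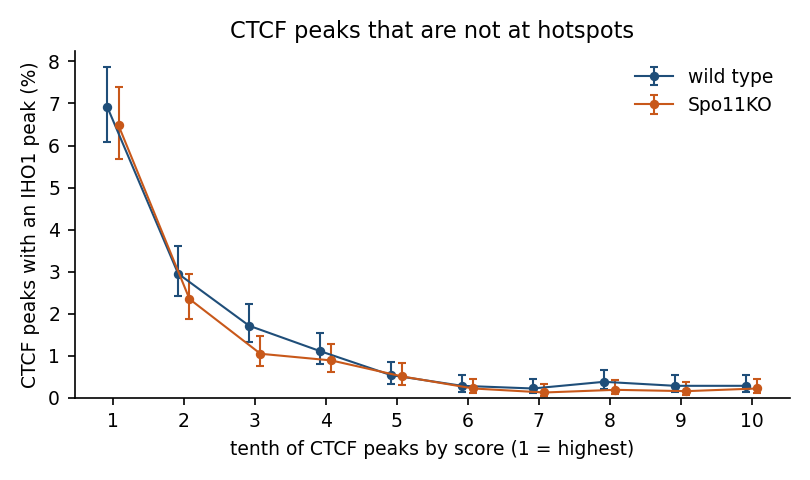
The vertical axis gives the percentage of CTCF peaks away from hotspots that had an IHO1 peak, in 10 equal groups by CTCF score from highest to lowest (horizontal axis), in wild type (blue) and Spo11KO (orange), with Wilson 95% intervals as bars. The genotypes lie close together in each group, at 6.92% and 6.48% in the highest.

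MEI4 was rare at these CTCF sites, though above the background, and HORMAD1 was common. Some of the IHO1 peaks at CTCF that had MEI4 lay in the last 1 Mb of chromosomes 4, 9 and X. Among them were the wild-type-only peak chr4:155732469-155740702 and the shared peaks chr9:124256301-124257955 and chrX:169992914-169997227. The MEI4 shares with these ends left out were not computed. MEI4 peaks lay at 10 of the 195 CTCF peaks with IHO1 in both genotypes (5.13%), in wild type and in Spo11KO alike. Where IHO1 was in wild type alone, MEI4 lay at 1.12% in wild type and 0.373% in Spo11KO. MEI4 peaks lay at 3 of the 189 CTCF peaks with IHO1 in Spo11KO alone in Spo11KO (1.59%) and at 0 of them in wild type. HORMAD1 lay at 44.4% (37.5 to 51.6) of them in wild type and 73.0% (66.3 to 78.8) in Spo11KO, at 48.5% (42.6 to 54.5) and 66.0% (60.2 to 71.5) where IHO1 was in wild type alone, and at 79.0% and 84.1% where it was in both. IHO1 of Mei4KO was present at 56.1% (49.0 to 63.0), 41.0% (35.3 to 47.0) and 84.1% (78.3 to 88.6) of these groups, and IHO1 of Hormad1KO at 1.06%, 0.746% and 8.21%. The 30843 CTCF peaks with IHO1 in neither genotype gave the background. MEI4 lay at 0.00973% of them in wild type and 0.00648% in Spo11KO, and HORMAD1 at 0.849% and 3.15%. IHO1 of Mei4KO lay at 0.694% and IHO1 of Hormad1KO at 0.0357%. In all 3 groups IHO1 of Mei4KO was thus more frequent than IHO1 of Hormad1KO, whereas at hotspots with IHO1 in Spo11KO the order was the opposite.

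The CTCF sites named for the shared class were chr9:124256301-124257955 (score 31.4), chr13:13888829-13890217 (13) and chrX:169992914-169997227 (11.2). The peak on chromosome 9 overlapped 20 of the 21 lists of the 4 proteins, and that on X all 21. Both are in the last 1 Mb of their chromosomes. Wild-type-only peaks lay at chrX:150477779-150479162 over Apex2, a gene of DNA base repair, and Tmem29 (10.6), at chr5:130852684-130854295 (8.76) and at chr1:88286988-88288711 (8.37). None of these 3 had MEI4 in any list, and all 3 had HORMAD1 in Spo11KO. Spo11KO-only peaks lay at chrX:75672738-75675550 (13.5) and at chr1:121567417-121568449 over the start of Ddx18, whose sequence is given above. Neither had MEI4 in any list.

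The X chromosome went against the autosomes. IHO1 peaks on X numbered 98 in wild type and 36 in Spo11KO, with 69 wild-type only and 7 Spo11KO only, whereas all 19 autosomes had more peaks in Spo11KO. To compare hotspots above the same DMC1 value, those of 1000 or more were taken, 96 on X and 1689 on autosomes. IHO1 was present in wild type at 30.2% (29 of 96; 21.9 to 40.0) of them on X and 29.0% (489 of 1689; 26.8 to 31.2) on autosomes, which differed by 1.26 points (-7.31 to 11.3, not called). In Spo11KO it was present at 22.9% (22 of 96; 15.6 to 32.3) on X and 70.2% (1186 of 1689; 68.0 to 72.4) on autosomes, a called difference of -47.3 points (-54.9 to -37.7). The gain of IHO1 at hotspots was therefore autosomal in these lists: 783 autosomal hotspots of this strength had IHO1 in Spo11KO alone, and 4 on X.

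MEI4 differed between X and autosomes as well, but in both genotypes. At hotspots of this strength it was present at 42.7% on X and 60.6% on autosomes in wild type (-17.9 points, -27.6 to -7.60), and at 65.6% and 92.7% in Spo11KO (-27.1 points, -37.1 to -18.3). Given MEI4 in Spo11KO, IHO1 was present at 34.9% (22 of 63; 24.3 to 47.2) on X and 74.5% (1166 of 1566; 72.2 to 76.6) on autosomes, a called difference of -39.5 points (-50.3 to -27.0). Hotspots of value 2000 or more gave the same order, with IHO1 in Spo11KO at 41.3% (28.3 to 55.7) on X and 81.1% (78.2 to 83.7) on autosomes. The DMC1 values used here are those of the wild type, and whether hotspots of like value on X and autosomes break alike was not tested. Copy number differs between X and autosomes in the male, and its part in the detection of peaks was not tested.

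**Figure D5:**
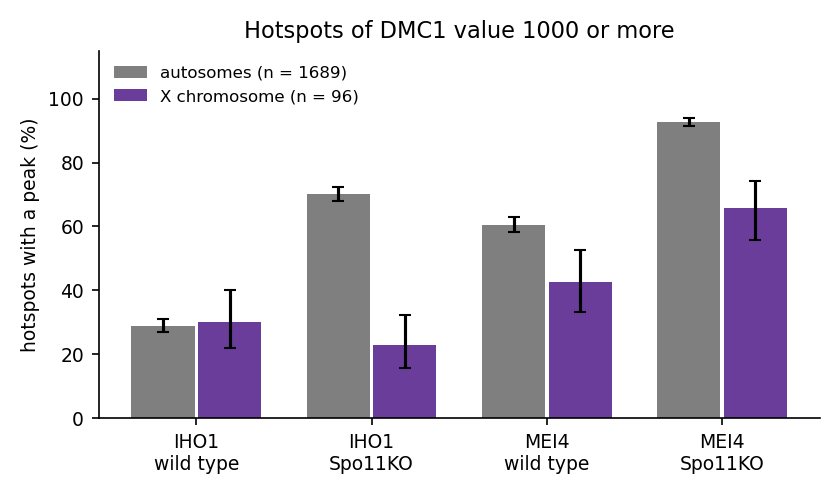
Bars give the percentage of hotspots of DMC1 value 1000 or more that had an IHO1 or MEI4 peak in wild type and Spo11KO, on autosomes (grey, 1689 hotspots) and on the X chromosome (purple, 96 hotspots), with Wilson 95% intervals. IHO1 in Spo11KO stands at 70.2% on autosomes and 22.9% on X, while in wild type it is at 29.0% and 30.2%.

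The ends of chromosomes 4, 9, 13, X and Y hold clusters of IHO1 in wild type. In the male mouse the X and Y share a short pseudoautosomal region at these ends, and together with the ends of a few autosomes it is known for a dense gathering of the break machinery. In the last 1 Mb below the highest coordinate of any list, IHO1 peaks numbered 63 in wild type and 44 in Spo11KO on chromosome 9, 21 and 6 on X, 14 and 10 on Y, 13 and 3 on chromosome 4, and 5 and 1 on chromosome 13. The other 16 chromosomes had 2 or fewer. IHO1 peaks were thus fewer without SPO11 at all 5 ends, while the genome as a whole had more. MEI4 peaks were also fewer at each, with 20 and 11 on chromosome 9, 9 and 3 on X, 4 and 3 on Y, 9 and 0 on chromosome 4, and 3 and 0 on chromosome 13. SYCP3 peaks were more or equal in number, with 51 and 60 on chromosome 9, 10 and 10 on X, 8 and 13 on Y, 7 and 17 on chromosome 4, and 3 and 7 on chromosome 13. HORMAD1 peaks were mixed, fewer on chromosome 9 (45 and 37), X (13 and 6) and chromosome 4 (10 and 8), and more on Y (7 and 11) and chromosome 13 (5 and 6). These ends hold repeated sequence, and how reads in it were treated is not given in the sources used here.

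On X, 10 wild-type-only peaks ran across Mid1, the ubiquitin ligase gene that spans the boundary of the pseudoautosomal region, from chrX:169905996-169906769 to chrX:169966031-169969995. Next came 4 shared peaks, from chrX:169978857-169984809 to chrX:170003500-170006415. Further wild-type-only peaks lay over Erdr1, at chrX:170011607-170012804 and chrX:170014114-170015366. The other shared peaks were chrX:170672731-170677731 over Asmt, the melatonin synthesis gene, and chrX:170812103-170816947. The stretch of Mid1 up to chrX:169966031-169969995 was therefore where the X end lost most of its IHO1 peaks. The shared peaks chrX:169978857-169984809 and chrX:169985818-169988785 also overlapped Mid1. On chromosome 9 the cluster covered the chemokine receptor genes Ccr9, Xcr1, Ccr1, Ccr3 and Ccr2, among others. Wild-type-only peaks there included those over Ccr9 (chr9:123753337-123771273 and chr9:123771631-123783639), and a shared one lay over Ccr2 (chr9:124098967-124113934). On chromosome 4 the wild-type-only peaks lay over Nadk, an NAD kinase gene (chr4:155589543-155593053), Aurkaip1 (chr4:155829679-155832794) and Samd11 (chr4:156254404-156255922), among others. On chromosome 13 all 5 wild-type peaks were wild-type only, over Tmem267, Ccl28, a chemokine gene, and Nim1k, and the single Spo11KO peak lay at chr13:119753674-119758253, also over Nim1k. Leaving these 5 ends out moved no call: the share of hotspots gaining IHO1 among those with it in exactly 1 genotype was then 92.5%. The comparison of X with autosomes had no hotspot of its strength in these ends, so leaving them out could not move it.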

How the data were processed

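The members and lists were chosen with earlier results of these data known. Per the submitters' processing notes, Bowtie2 and MACS2 were used with mm10; versions, thresholds and replicate pooling are not given in the sources used here. The authors subtracted the signal of each protein's own knockout, as the design text states. The deposited lists give intervals; DMC1 has a deposited signal value and CTCF a deposited score. Depth is unknown. Overlap was 1 bp or more; shares have Wilson and differences Newcombe 95% intervals, which hold for independent peaks and counting error alone. The scripts (Python 3.11.15) were tested on simulated data. Named sites were the 3 peaks per class with the highest DMC1 value, the 3 away from hotspots with the highest CTCF score, and peaks in the last 1 Mb of chromosomes 4, 9, 13 and X, of which a part is named; 2 sites are not reported here. Coverage of hotspot centres, X against autosomes, promoter windows, rank bins and leaving out chromosome ends were chosen after the data were examined. Gene names and promoters are from RefSeq (GRCm38.p6), which gave no exons. Alternatives varied the overlap, window, chromosomes and lists.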

Additional observations from a re-analysis of the deposited data

How the results depend on the processing

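Of 99 alternative values over 17 results, 84 kept their direction and their side of the threshold, or moved less than the interval. The share of wild-type IHO1 peaks found in Spo11KO was 46.6% with an overlap of 50% of the shorter interval, 42.7% with the 1 kb window, 45.7% among the wider 50% and 36.2% with the Spo11KO list reduced to the wild-type length. The share of Spo11KO peaks found in wild type was 25.3% with the 1 kb window, 27.2% among the wider 50% and 35.2% with the reduced list, which is shorter by construction. Among the wider 50%, the CTCF share of Spo11KO-only minus wild-type-only peaks changed sign to 1.48 points (-3.52 to 6.22) and was not called. The share gained among CTCF peaks away from hotspots reversed to 66.2% (60.2 to 71.6). The CTCF difference away from hotspots became called at 12.7 points (50% overlap), 6.35 (1 kb window) and 19.5 (wider 50%). The difference in upper-quarter CTCF scores was no longer called at -7.46 points (1 kb window), -1.47 (reduced list) and -3.28 (higher-scored CTCF peaks). The cause was not tested. Width stood in for height, which the IHO1 lists lack. No paired analysis was possible because each group has 1 peak list, and no replicate could be left out. Without depths, a missing peak sets no limit on binding.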

Other observations

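IHO1 peaks at neither a hotspot nor a CTCF peak made up 41.2% of the wild-type-only peaks (326 of 792; Wilson 95% interval 37.8 to 44.6), 18.6% of the shared wild-type peaks (148 of 797; 16.0 to 21.4) and 9.80% of the Spo11KO-only peaks (186 of 1898; 8.54 to 11.2). HORMAD1 of wild type lay at 39.3% of these wild-type-only peaks, 66.2% of the shared and 26.9% of the Spo11KO-only ones, and HORMAD1 of Spo11KO at 27.3%, 75% and 43.0%. IHO1 of Mei4KO lay at 18.7%, 60.1% and 39.8%. In each of these 3 lists the share was highest for the shared peaks, and the differences were not tested. Many of these shared peaks lay close together in the last 1 Mb of chromosome 9, which held 41 shared wild-type peaks at any kind of site. The shares without that end were not computed.

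The number of IHO1 peaks in Spo11KO over that in wild type ran from 1.09 on chromosome 5 (151 and 164 peaks) to 3 on chromosome 14 (36 and 108) among the autosomes. Y had 15 wild-type and 10 Spo11KO peaks.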
